A study of Mus musculus with 12 samples.

Results

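Genes that mark primordial germ cells or carry the developmental pluripotency associated (Dppa) name were followed in epiblast-like cells (EpiLCs) with and without *Kdm5c*. The 10 genes were *Dazl*, *Dppa2*, *Dppa3*, *Dppa4*, *Dppa5a*, *Nanos3*, *Dnd1*, *Prdm1*, *Kit* and *Ifitm3*. They were named by symbol, with earlier results of these data known, so they are not an unselected set. All 10 were found among the 22911 mouse genes of both RNA-Seq tables. EpiLCs were made from embryonic stem cells (ESCs) by 48 h of culture with FGF2 and Activin A, and 3 libraries were sequenced for each of 4 genotypes. Female *Kdm5c* fl/fl and male *Kdm5c* flY cells, which carry the floxed but undeleted gene, were the controls. Female *Kdm5c* Δ/Δ and male *Kdm5c* ΔY cells carry the deleted allele, which lacks the exons of the JmjC demethylase domain. The labels give C57BL/6J as the strain and name the genotypes by Smcx, another name of *Kdm5c*, whereas the methods describe the floxed strain as made on a mixed background. According to the methods, each genotype was represented by 3 independent ESC lines, which were derived from blastocysts on feeder fibroblasts and then grown without feeders in 2i medium.

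Primordial germ cells arise from the epiblast after implantation, when BMP and WNT signals switch on *Prdm1*, *Prdm14* and *Tfap2c*. EpiLCs resemble the epiblast shortly before that step and are a common starting point for making germ cell-like cells in culture. *Prdm1* encodes a repressor of the somatic programme, *Nanos3* and *Dnd1* encode RNA-binding proteins that keep early germ cells alive, and *Kit* encodes the receptor through which germ cells receive survival and migration signals. *Dazl* encodes an RNA-binding protein used later, when germ cells reach the gonad. *Dppa3* and *Ifitm3* mark newly formed germ cells, and *Dppa3* is also made in oocytes and naive ESCs. *Dppa2* and *Dppa4* encode SAP domain chromatin proteins that act as a pair, and *Dppa5a* encodes a KH domain protein of ESCs. KDM5C itself removes methyl groups from lysine 4 of histone H3, a mark of active promoters and enhancers.

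The values given are normalized counts, that is, read numbers scaled by the size factor of their library. Reads of single libraries were worked out from the deposited genotype means, and the libraries were named A, B and C within a genotype. The libraries held 5516216 to 11092731 recovered reads. *Kdm5c* averaged 2359.7 ± 60.7 (SD, n = 3) in female *Kdm5c* fl/fl and 1453 ± 49.7 (SD, n = 3) in female *Kdm5c* Δ/Δ EpiLCs, and 2226 ± 133 (SD, n = 3) in male *Kdm5c* flY and 1938 ± 39.7 (SD, n = 3) in male *Kdm5c* ΔY EpiLCs. A count over the whole gene does not show whether the deleted exons are missing. The paper reports, from RNA-Seq coverage of EpiLCs, that the deleted allele lacks reads from those exons. Some male libraries stood apart. Male *Kdm5c* flY libraries A and C had reads on genes that were silent elsewhere, at a mean of 1.58 and 1.78 normalized counts over 4976 such genes, against 0.0715 to 0.114 in the other 10 libraries. These genes were chosen by their low mean over those 10 libraries, so the low values there follow from the choice. Among all genes, 2035 had 0 reads in library A and 2440 in library C, against 5077 to 5645 in the other 10. Male *Kdm5c* flY library B and male *Kdm5c* ΔY library A differed from the other libraries of their genotype by a median absolute log2 difference of 0.277 and 0.314, against 0.117 to 0.220 for the other 10 libraries. In bulk RNA, fewer cells of a type and less RNA per cell cannot be told apart. The EpiLC markers *Fgf5*, *Pou3f1*, *Otx2* and *Dnmt3b* were detected in all 4 genotypes, with *Fgf5*, the lowest of them in each genotype, at a mean of 168 to 336.

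Promoter sequence is shown for *Dazl* and *Kit*, which had the largest increases among the 10 genes in female mutant cells, and for *Nanos3*, which stayed at a few reads per library in all 4 genotypes. The sequences are the 250 bases upstream of the RefSeq start of *Dazl* and *Nanos3* and, for *Kit*, the 179 bases that lie upstream of both the RefSeq and the GENCODE start. They are from RefSeq on GRCm38.p6, were each located by an exact match on mm9, and are written 5′ to 3′ on the strand of the gene. Capitals mark CG dinucleotides, the sites of DNA methylation. The *Dazl* stretch lies at chr17:50432946-50433195 on the minus strand, the *Kit* stretch at chr5:75970762-75970940 on the plus strand and the *Nanos3* stretch at chr8:86700452-86700701 on the minus strand.
Dazl: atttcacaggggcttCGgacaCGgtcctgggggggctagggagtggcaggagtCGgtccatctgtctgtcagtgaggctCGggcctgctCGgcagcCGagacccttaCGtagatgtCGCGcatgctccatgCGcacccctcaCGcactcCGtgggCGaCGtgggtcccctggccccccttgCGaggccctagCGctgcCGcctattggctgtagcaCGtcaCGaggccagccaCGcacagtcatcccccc
Kit: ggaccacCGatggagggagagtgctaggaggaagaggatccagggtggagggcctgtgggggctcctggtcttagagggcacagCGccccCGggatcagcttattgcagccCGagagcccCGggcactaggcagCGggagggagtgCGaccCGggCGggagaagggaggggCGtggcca
Nanos3: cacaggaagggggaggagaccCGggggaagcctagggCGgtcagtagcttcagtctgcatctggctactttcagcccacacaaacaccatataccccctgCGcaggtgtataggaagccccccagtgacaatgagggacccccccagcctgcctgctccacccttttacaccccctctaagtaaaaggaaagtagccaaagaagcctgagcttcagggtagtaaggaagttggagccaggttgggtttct
The 250 bases upstream of *Dazl* held 20 CG dinucleotides, more than 82.1% of the 32851 promoters in the RefSeq set, whose median was 6. *Kit* held 17 in its full 250 bases, 10 of them in the printed stretch, and *Prdm1* held 15, whereas *Nanos3* and *Ifitm3* held 3 each. The E-box letters CACGTG were found in 0 of these 5 promoters and in 6.02% of all promoters, and the E2F letters TTCCCGCC were found in 0 of the 5 and in 1.86% of all. The letters CCAAT, searched on both strands, were found 47 bases upstream of the start of *Dazl* and 31 bases upstream of that of *Prdm1*, and in 33.8% of all promoters. In mm9 the *Dazl* gene spans chr17:50418719-50432924, *Kit* spans chr5:75970941-76052747 and *Nanos3* spans chr8:86697632-86700451.

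**Figure D1:**
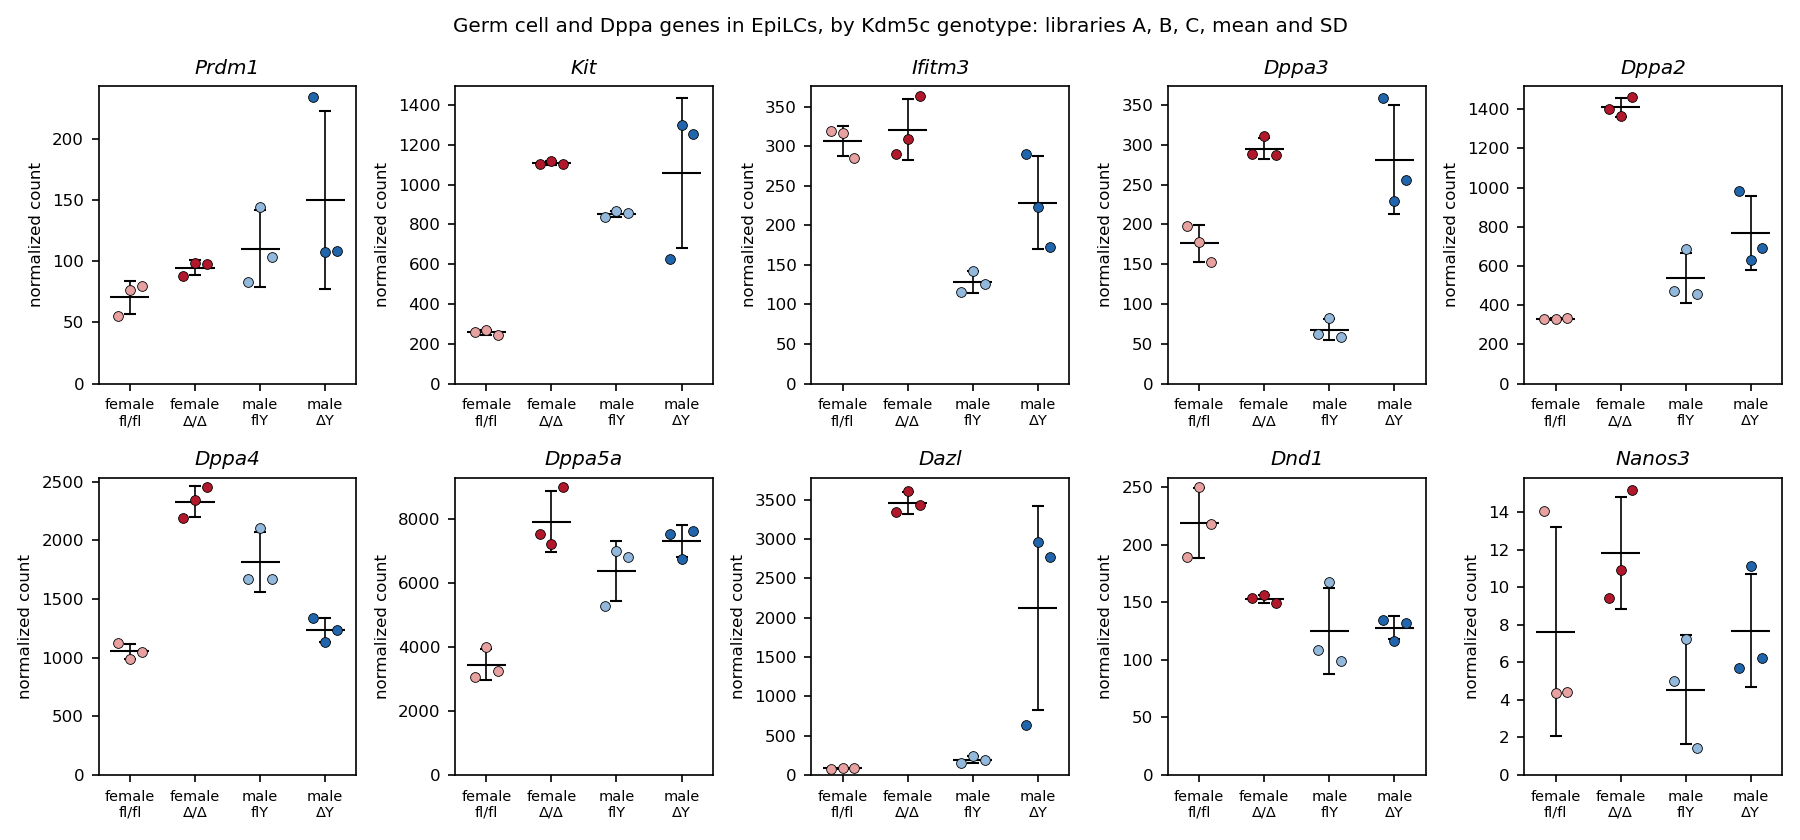
Normalized count (y axis) of each of the 10 genes in the 4 genotypes (x axis). Points are libraries A, B and C from left to right, and the line and bar are the mean and SD. For *Dazl* the female *Kdm5c* Δ/Δ libraries sit at 3338 or more and the female *Kdm5c* fl/fl libraries at 88.9 or less, and male *Kdm5c* ΔY library A sits below B and C for *Dazl*, *Kit* and *Nanos3*. It sits above them for *Dppa2*, *Dppa3*, *Dppa4*, *Dnd1*, *Prdm1* and *Ifitm3*.

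To ask how loss of *Kdm5c* changed these genes, knockout was compared with control within each sex. In female EpiLCs 8 of the 10 genes passed the test (limma, Benjamini-Hochberg adjusted p under 0.05 over 19583 genes), 7 higher and 1 lower. Of all genes tested 50.0% passed, 25.4% higher and 24.6% lower. *Dazl*, *Kit*, *Dppa2*, *Dppa5a*, *Dppa4*, *Dppa3* and *Prdm1* rose, in falling order of size, and *Dnd1* fell. In male EpiLCs 4 of the 10 genes passed, with *Dazl*, *Dppa3* and *Ifitm3* higher and *Dppa4* lower, where 7.78% of 21900 genes passed, 4.19% higher and 3.58% lower. *Dazl* and *Dppa3* rose in both sexes, as did 2.07% of the 19430 genes tested in both, and *Dppa4* moved in opposite directions, as did 2.24%. The median log2 difference of the 10 genes was 0.95 in females, against 0.0037 over all genes, and 0.44 in males, against -0.16 over all genes. With genes of a mean below 10 left out, the male median over all genes was 0.0008. Control and knockout libraries did not overlap for 8 of the 10 genes in females (54.8% of all genes) and for 4 of the 10 in males (26.5%). With 3 libraries against 3, groups that do not overlap give an exact two-sided permutation p of 0.10, the smallest possible, so the calls rest on limma. The male calls depended on single libraries. Leaving out male *Kdm5c* flY library A, male *Kdm5c* flY library C or male *Kdm5c* ΔY library B left 2, 1 and 2 of the 4 calls, and leaving out male *Kdm5c* flY library B together with male *Kdm5c* ΔY library A gave 6. That last fit keeps only the most alike libraries of each male genotype, so the spread it rests on is small. With libraries A and C of male *Kdm5c* flY left out, so that library B was the lone control, 0 of the 10 passed in limma and 2 had an unadjusted p under 0.05. Tested directly, the change differed between the sexes for 7 of the 10 genes (21.2% of 22014 genes), with the male change above the female change for *Dppa3* and *Ifitm3* (10.6%) and below it for *Dazl*, *Kit*, *Dppa4*, *Dppa2* and *Dppa5a* (10.7%).

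**Figure D2:**
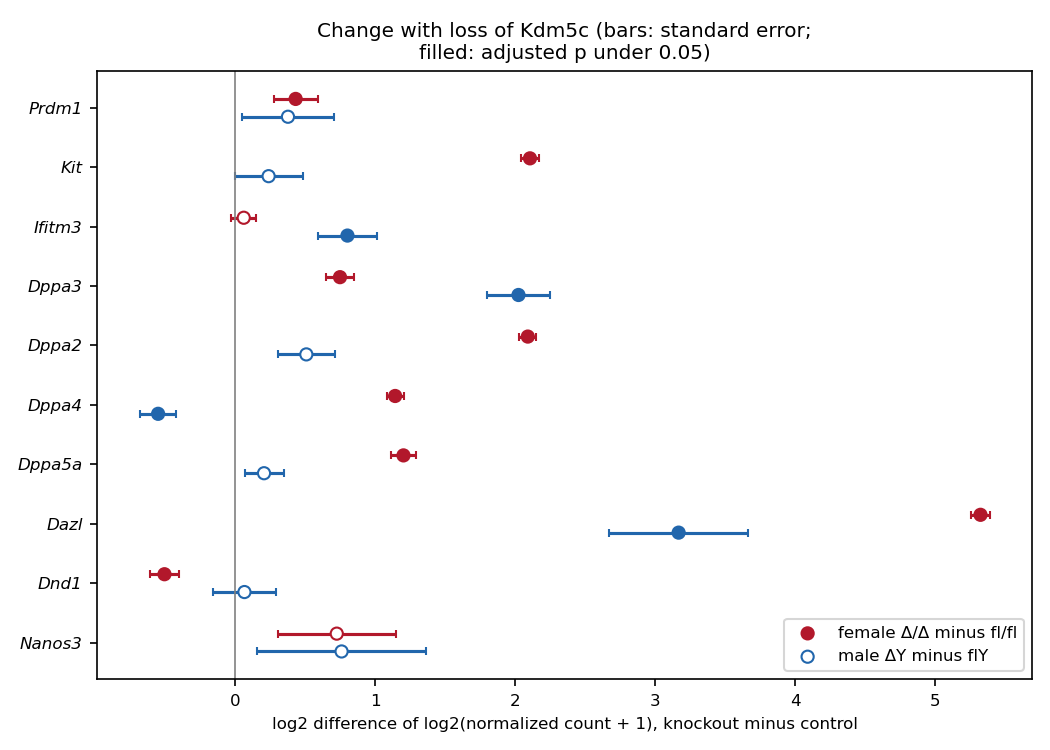
Difference in log2(normalized count + 1), knockout minus control (x axis), for each gene (y axis) in females and males. Points are limma estimates, bars their standard errors, and filled points passed the test. *Dazl* lies farthest to the right in both sexes (5.32 in females and 3.17 in males), and *Dppa4* lies on opposite sides of 0 in the sexes.

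Among the RNA-binding proteins, *Dazl* changed most. Its normalized count was 82.5, 84.5 and 88.9 in the female *Kdm5c* fl/fl libraries and 3338, 3607 and 3433 in the female *Kdm5c* Δ/Δ libraries. Every female mutant library was far above every control, and the ratio of the means was 40.5. This was a log2 difference of 5.32 (SE 0.064, limma adjusted p = 7.36e-20), which ranked 1 of the 13915 genes whose mean was 10 or more. In males the count was 151, 243 and 194 in the control libraries and 636, 2968 and 2770.0 in the mutant libraries. All male mutant libraries were above all controls, but library A was several times below B and C. The male log2 difference was 3.17 (SE 0.50, limma adjusted p = 0.0067), 36th of 14304 genes by size. It was 3.18 with an adjusted p of 0.0608 without male *Kdm5c* flY library C, in a range of 2.62e-06 to 0.377 over all alternatives. Between the sexes, the change was smaller in males by 2.16 on the log2 scale (SE 0.58, limma interaction adjusted p = 0.0171). That difference was 1.43 without male *Kdm5c* ΔY library A, again with the smaller change in males.

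*Dnd1*, whose product binds mRNA together with NANOS proteins, moved the other way in female cells. It was at 189, 250.3 and 218 in female controls and at 154, 157 and 149.6 in female mutants. The groups did not overlap, and the log2 difference was -0.50 (SE 0.10, limma adjusted p = 0.000562). In males it was at 109, 167 and 99.2 in controls and at 135, 117 and 132 in mutants, so the groups overlapped (log2 difference 0.07, 95% interval -0.44 to 0.57). The female and male changes differed by 0.57 (limma adjusted p = 0.124), and by 0.80 (adjusted p = 0.00548, in a range of 0.00417 to 0.711 over the alternatives) without male *Kdm5c* flY library B. *Dnd1* shares 38 exonic bases with *Wdr55* on the opposite strand, and whether strand was used in counting was not given in the sources used here. *Nanos3*, the other early survival factor, was close to the limit of detection. It had 14, 4 and 4 reads in the female controls, 12, 13 and 15 in the female mutants, 5, 7 and 1 in the male controls and 7, 11 and 6 in the male mutants. The groups overlapped in both sexes, and a difference was not detectable at this depth in either (log2 difference 0.73, 95% interval -0.16 to 1.62 in females, and 0.76, -0.60 to 2.12 in males). Without female *Kdm5c* fl/fl library A, the one with 14 reads, the female difference was 1.22 with an adjusted p of 0.0213, in a range of 0.0213 to 0.420 over the alternatives.

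Among partners and relatives of these RNA-binding factors, *Boll*, a close relative of *Dazl*, rose in females by 2.03 on the log2 scale (limma adjusted p = 1.95e-05), from a mean of 6.74 to 30.5. *Rbm47*, which encodes an RNA-binding cofactor of cytidine deamination, rose in females by 1.76 (adjusted p = 7.73e-11), and *Nanos1*, a relative of *Nanos3*, rose by 0.34 (adjusted p = 0.0244). *Cnot1*, which encodes the scaffold of the CCR4-NOT deadenylase, fell by 0.29 in females (adjusted p = 0.000113). In males these 4 genes did not pass (adjusted p = 0.799, 0.120, 0.198 and 0.858).

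*Dppa2* and *Dppa4* are neighbours on chromosome 16, 16.2 kb apart on the same strand, and their change with genotype depended on sex. *Dppa2* was at 328, 328 and 334 in female controls and at 1400.4, 1366 and 1462 in female mutants. The libraries of each female genotype lay close together, and the mutants were 4.27 times the controls (log2 difference 2.09, SE 0.059, limma adjusted p = 7.23e-15). In males *Dppa2* was at 474, 686 and 457 in controls and at 984, 632 and 689.9 in mutants. The male groups overlapped through control library B, and the difference did not pass (log2 0.51, SE 0.20, adjusted p = 0.164). It passed without male *Kdm5c* flY library B and male *Kdm5c* ΔY library A (log2 0.50, adjusted p = 0.00263) and in 1 fit over all 12 libraries (adjusted p = 0.0390), and the adjusted p over all alternatives ran from 0.00263 to 0.835.

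*Dppa4* was at 1123, 993 and 1045 in female controls and at 2189.5, 2342 and 2454 in female mutants. Every female mutant was above every female control (ratio 2.21, log2 difference 1.14, SE 0.061, limma adjusted p = 4.03e-11). In males *Dppa4* was lower in mutants, at 1670.0, 2107 and 1666 in controls and at 1336, 1135 and 1232 in mutants. The male groups did not overlap, and the log2 difference was -0.55 (SE 0.13, adjusted p = 0.0357). The male call was lost without male *Kdm5c* flY library A (adjusted p = 0.103) or C (0.109) and without male *Kdm5c* ΔY library B (0.148) or C (0.131), with a log2 difference of -0.61 to -0.44 when any 1 library was left out, and the adjusted p ran from 0.00117 to 0.231 over all alternatives. The male change minus the female change was -1.58 for *Dppa2* (adjusted p = 0.000294) and -1.69 for *Dppa4* (adjusted p = 4.74e-06), and both passed under every alternative tried.

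Within a library, the balance of the pair moved the same way in both sexes. The ratio of *Dppa2* to *Dppa4* was 0.292, 0.331 and 0.319 in female controls and 0.640, 0.583 and 0.596 in female mutants. In males it was 0.284, 0.326 and 0.274 in controls and 0.736, 0.557 and 0.560 in mutants. Control and mutant ratios did not overlap in either sex, although the levels of each gene differed between the sexes. The mean log2 ratio was higher in mutants by 0.95 in females and by 1.06 in males. Female minus male, the mean log2 ratio differed by 0.09 in controls and by -0.016 in mutants. The ratio was chosen after the values had been seen and is given without a test. Of 50-base reads that start in the exons, 51.8% for *Dppa2* and 51.0% for *Dppa4* occur once in mm9, so that only part of each transcript could be counted.

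**Figure D3:**
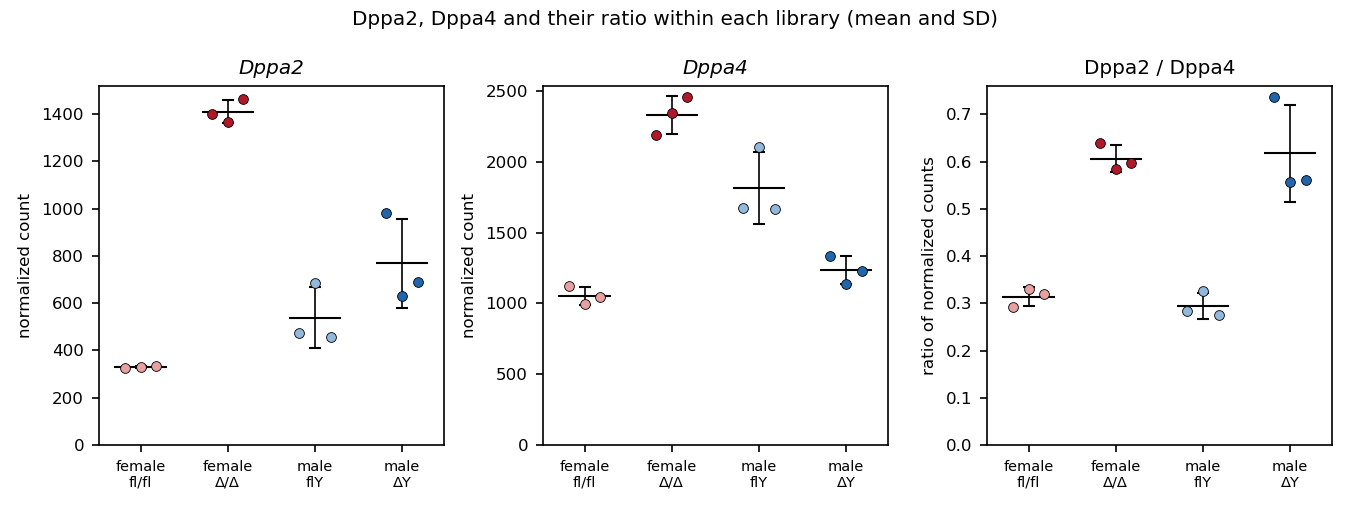
Normalized count of *Dppa2* and of *Dppa4* and the ratio of the first to the second within each library (y axes) in the 4 genotypes (x axes). Points are libraries A, B and C from left to right, and the line and bar are the mean and SD. The ratio is 0.274 to 0.331 in the 6 control libraries and 0.557 to 0.736 in the 6 mutant libraries.

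In ESCs, *Dppa2* and *Dppa4* act upstream of *Dux* and of the genes of the embryo's earliest stage that *Dux* activates. Of 11 genes listed for this stage and tested in females 2 were higher and 0 lower by limma, where 25.4% of all genes were higher and 24.6% lower. These were *Eif1a*, a translation initiation factor gene (log2 0.83, adjusted p = 1.15e-09), and *Usp17le*, a ubiquitin protease gene (log2 0.93, adjusted p = 0.0251). *Eif1a* was already abundant in female controls, at a mean of 1605, whereas the other listed genes averaged at most 204 in any genotype. Whether its rise belongs to this early stage was not tested. In males 0 of 11 passed, against 7.78% of all genes. *Dux* itself was at 9.05, 3.29 and 22.2 in female controls and at 6.27, 4.21 and 9.09 in female mutants. In males *Dux* was at 40.9, 4.14 and 47.4 in controls, where A and C are the libraries with reads on silent genes, and at 27.6, 6.08 and 15.5 in mutants. *Zscan4c*, a telomere-associated member of the list, averaged 18.7 and 28.7 in female controls and mutants (adjusted p = 0.106). In males *Zscan4c* was at 44.9, 48.6 and 37.4 in controls and at 187, 18.2 and 24.8 in mutants (adjusted p = 0.980), so that only mutant library A was above the controls. Many of these genes have near-identical copies, so the counts of single members are uncertain.

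*Dppa3*, which protects methylated DNA in the early embryo, rose in both sexes, and more in males. It was at 198, 178 and 152 in female controls and at 288, 311 and 287 in female mutants. In males it was at 61.8, 82.7 and 58.9 in controls and at 359, 229 and 255 in mutants. The groups did not overlap in either sex, and the male controls were the lowest of the 4 genotypes. The log2 difference was 0.75 in females (SE 0.098, limma adjusted p = 3.86e-06) and 2.02 in males (SE 0.22, limma adjusted p = 0.00129). The male change exceeded the female change by 1.27 (SE 0.25, adjusted p = 0.00233). The male call held when any 1 library was left out (adjusted p of at most 0.0196), and was lost with male *Kdm5c* flY library B as the lone control (log2 1.73, adjusted p = 0.231, in a range of 5.51e-06 to 0.231).

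*Dppa5a* had the highest level per length of the 10 genes in every genotype. Its normalized count was 3079, 3998 and 3256 in female controls and 7532, 7218 and 9004 in female mutants. In males it was 5293, 7011 and 6814 in controls and 7549, 6741 and 7644 in mutants. The female groups were well apart (log2 difference 1.20, SE 0.088, limma adjusted p = 2.45e-09), and the male groups overlapped (log2 difference 0.21, 95% interval -0.11 to 0.52). The male change minus the female change was -0.996 on the log2 scale (adjusted p = 0.00172). Only 35.4% of 50-base reads from its exons occur once in mm9, where up to 8 copies were found, so its counts cover part of the transcript and the share of reads from near-identical copies is uncertain.

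*Ooep*, a KH domain gene of the oocyte that lies 7.93 kb from *Dppa5a*, rose in both sexes. Its log2 difference was 1.45 in females (adjusted p = 8.32e-08) and 1.25 in males (adjusted p = 0.0104). It was 1 of 2 genes that rose among the 5 Dppa and KHDC1 relatives tested in females (25.4% of all genes), and the only 1 of 6 in males (4.19%). The other was *Khdc3*, an oocyte partner of *Ooep*, which rose by 2.32 in females (adjusted p = 7.03e-09) and did not pass in males (adjusted p = 0.120). Its male values were 41.9, 130.3 and 48.9 in controls and 69.8, 483 and 511 in mutants, which overlapped. *Dppa1* had 0 reads in all 6 female libraries, and its male control values of 1.99, 0 and 7.19 were above 0 only in libraries A and C, which had reads on silent genes.

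*Prdm1*, the repressor that starts the germ cell programme, changed little. It was at 55.3, 76.9 and 80.0 in female controls and at 87.8, 98.5 and 98.0 in female mutants. The female mutants were just above the highest control, and the log2 difference was 0.43 (SE 0.16, limma adjusted p = 0.0286). That call was lost without female *Kdm5c* fl/fl library A (0.27, adjusted p = 0.140), female *Kdm5c* Δ/Δ library B (0.40, 0.0892) or female *Kdm5c* Δ/Δ library C (0.41, 0.0956), and in 1 fit over all 12 libraries (adjusted p = 0.304), in a range of 0.0189 to 0.304. In males *Prdm1* was at 82.8, 145 and 103 in controls and at 235, 107 and 109 in mutants, where library A alone was high. The male log2 difference was 0.38 (95% interval -0.35 to 1.11).

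The regulators that act with *Prdm1* did not move as 1 group. Of the 16 regulators of germ cell specification tested, 6 were higher and 3 lower in females, and 2 were higher and 1 lower in males. The shares over all genes were 25.4% higher and 24.6% lower in females and 4.19% and 3.58% in males. *Tfap2c*, which encodes a transcription factor of the germ cell programme that is also made in trophoblast, was the only one to rise in both sexes (log2 1.06, adjusted p = 6.60e-08 in females, and 1.89, adjusted p = 0.00412 in males). *Prdm14*, the third factor, averaged 17.1 and 23.4 in female controls and mutants and 24.6 and 57.3 in male controls and mutants, without passing in either sex (adjusted p = 0.218 and 0.0895). *T*, of the WNT response of the forming streak, and *Wnt3*, which encodes a WNT signal, fell by 3.09 and 3.33 in females (adjusted p = 1.17e-07 and 8.22e-11). Neither passed in males (limma adjusted p = 0.402 and 0.708). Their means were 96.7 and 171 in female controls and 11.5 and 45.6 in male controls. *Otx2*, a repressor of entry into the germ cell fate, rose in females by 0.36 (adjusted p = 0.00127) and fell by 1.72 in males (adjusted p = 0.000518), and the sexes differed by 2.08 (adjusted p = 6.67e-06). The remaining calls were *Bmp2*, *Acvr1*, *Prmt5* and *Wdr77* higher and *Smad4* lower in females, and *Bmpr1a* higher in males. The median over the 16 genes was 0.08 in females and 0.03 in males, against 0.0037 and -0.16 over all genes. Among all genes with a mean of 10 or more, the male median was 0.0008.

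*Kit*, the receptor tyrosine kinase of germ and blood stem cells, differed between the sexes mainly in the controls. It was at 259.5, 268 and 243 in female controls and at 1105, 1119 and 1105 in female mutants. Every female mutant was well above every control (ratio 4.32, log2 difference 2.11, SE 0.064, limma adjusted p = 1.62e-14). Male controls, at 836, 865 and 857, were already well above the female controls. The male mutants were at 627, 1299 and 1255, on both sides of the controls, and the log2 difference was 0.24 (95% interval -0.31 to 0.79). Without male *Kdm5c* ΔY library A it was 0.58 (adjusted p = 0.00278), in a range of adjusted p from 0.000463 to 0.917 over the alternatives. The change was smaller in males by 1.87 on the log2 scale (adjusted p = 0.000382), and by 1.52 without that library.

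The ligand of *Kit* rose as well. *Kitl*, which encodes stem cell factor, was at 12.1, 16.5 and 11.1 in female controls and at 61.9, 61.4 and 69.7 in female mutants. In males it was at 23.9, 32 and 24.4 in controls and at 46.3, 66.9 and 73.4 in mutants. The groups did not overlap in either sex, with log2 differences of 2.22 (adjusted p = 3.58e-07) and 1.17 (adjusted p = 0.0471). Of the chemokine pair that guides migrating germ cells, the receptor *Cxcr4* rose in females by 1.42 (adjusted p = 0.000413), and the ligand *Cxcl12* fell by 1.21 in females (adjusted p = 4.48e-08). Neither passed in males, where *Cxcr4* averaged 5.79 in controls and 20.5 in mutants. *Cxcl12* was at 266, 328 and 223 in male controls and at 573, 106 and 134 in male mutants, with library A above and B and C below every control.

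*Ifitm3*, an interferon-induced membrane protein gene also called fragilis, moved in males and not detectably in females. It was at 319, 316 and 285 in female controls and at 291, 309 and 364 in female mutants, which overlapped (log2 difference 0.06, 95% interval -0.12 to 0.25). In males it was at 116, 143 and 126 in controls and at 291, 223 and 173 in mutants, which did not overlap. The male log2 difference was 0.80 (SE 0.21, limma adjusted p = 0.0468). The male call was lost without male *Kdm5c* flY library A (adjusted p = 0.180) or C (0.172), without male *Kdm5c* ΔY library B (0.141), and with limma voom (0.0695), within a range of 0.00359 to 0.482. The change was larger in males by 0.74 (adjusted p = 0.0352), and the adjusted p of that difference ran from 0.00664 to 0.209 over the alternatives. Of the 6 other Ifitm genes tested in females, *Ifitm2* alone passed (log2 -0.24, adjusted p = 0.00677), and of 5 in males 0 passed limma's adjusted threshold. Over all genes, 50.0% passed in females and 7.78% in males.

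Because both tables proved to use size factors of 1 common scale, the sexes were also compared within each genotype. In controls 7 of the 10 genes differed between females and males (limma, 21.5% of 22014 genes), 3 higher in females (9.70%) and 4 lower (11.8%). *Dppa3*, *Ifitm3* and *Dnd1* were higher in female controls, by 1.37, 1.25 and 0.83 on the log2 scale (adjusted p = 0.000127, 0.000153 and 0.00467). With male *Kdm5c* flY library B as the lone male control, the *Dnd1* difference was 0.38 and did not pass (adjusted p = 0.191, in a range of 4.95e-05 to 0.191). *Kit*, *Dppa5a*, *Dppa4* and *Dppa2* were lower in female controls, by -1.73, -0.89, -0.78 and -0.68 (adjusted p = 5.53e-05, 0.000393, 0.000177 and 0.00892). *Dazl* was also lower in every female control than in every male control, at -1.16, without passing (adjusted p = 0.0585). The same *Dazl* difference passed where male *Kdm5c* ΔY library A, B or C was left out of the shared spread (adjusted p = 8.65e-06, 0.0377 and 0.0465, in a range of 8.65e-06 to 0.317), as did that of *Prdm1*, -0.61, without library A (adjusted p = 0.0267 against 0.123, in a range of 0.0267 to 0.344). The control libraries of the sexes did not overlap for 9 of the 10 genes, *Nanos3* being the exception (35.7% of all genes).

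In mutants 3 of the 10 genes differed between the sexes (25.2% of all genes), and all 3 were higher in females (12.6%). *Dppa4* and *Dppa2* were higher in female mutants by 0.92 and 0.90 (adjusted p = 5.09e-05 and 0.00121), and *Ifitm3* by 0.51 (adjusted p = 0.0334). *Ifitm3* lost this call without female *Kdm5c* Δ/Δ library B (adjusted p = 0.0715) or C (0.145) or male *Kdm5c* ΔY library B (0.0790) or C (0.161), in a range of 0.000940 to 0.161 over the alternatives. *Dppa2* and *Dppa4* were thus lower in females among controls and higher in females among mutants. For *Dppa3* the difference between the sexes was 1.37 in controls and 0.10 in mutants (95% interval -0.28 to 0.47), and for *Dppa5a* it was -0.89 and 0.11 (-0.17 to 0.39). For *Kit* it was -1.73 in controls and 0.14 in mutants (-0.29 to 0.57), and -0.20 (adjusted p = 0.0473, in a range of 0.0101 to 0.828) in mutants without male *Kdm5c* ΔY library A. *Dazl* was higher in female than in male mutants by 0.99 (adjusted p = 0.0985), and by 0.27 without male *Kdm5c* flY library B and male *Kdm5c* ΔY library A (adjusted p = 0.0396, in a range of 0.0311 to 0.203). It also passed without male *Kdm5c* ΔY library B (1.38, adjusted p = 0.0311) or C (1.33, 0.0444). The libraries of female and male mutants did not overlap for 6 of the 10 genes (37.0% of all genes).

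Levels of different genes were compared as normalized counts per kb of exon from which a 50-base read occurs once in mm9. In female controls the order was *Dppa5a* at 20626, *Dppa4* at 1735, *Ifitm3* at 588, *Dppa2* at 397, *Dppa3* at 368, *Dnd1* at 95.1, *Kit* at 53.5, *Dazl* at 35.2, *Prdm1* at 14.0 and *Nanos3* at 12.1. The libraries of *Dppa2* and *Dppa3*, and of *Prdm1* and *Nanos3*, overlapped, and other neighbours in this order did not. In female mutants *Dazl* moved from the 8th to the 4th place, at 1426, behind *Dppa5a* at 47416, *Dppa4* at 3835 and *Dppa2* at 1694. In male controls *Dazl* was the 7th at 80.7, where its libraries overlapped with those of *Dnd1* at 54.3. In male mutants it was the 4th at 876, and its libraries overlapped with those of *Dppa2* at 924 and of *Dppa3* at 588. The order depends on the length used. Per kb of all exon, *Dazl* was above *Dppa2* in mutants, at 1148 against 724 in females and at 705 against 395 in males. *Prdm1* and *Nanos3* were the lowest in all 4 genotypes.

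Of the genes that act in later germ cells, 11 were in the tables. In females 8 of them rose and 3 fell, and in males 4 rose and 2 fell. Their median log2 difference was 1.19 and 0.51 against 0.0037 and -0.16 over all genes. Among all genes with a mean of 10 or more, the male median was 0.0008. The shares over all genes were again 25.4% and 24.6% in females and 4.19% and 3.58% in males. *Stk31*, which encodes a kinase-like Tudor domain protein of the male germ line, was at 20.1, 6.59 and 13.3 in female controls and at 415, 479.8 and 465 in female mutants. In males *Stk31* was at 184, 228 and 149 in controls and at 338, 546 and 572 in mutants. As for *Dazl*, the groups did not overlap in either sex, and the male controls were above the female controls. The log2 difference was 5.10 in females (adjusted p = 1.20e-11) and 1.35 in males (adjusted p = 0.00956). *Piwil2*, of the piRNA pathway, rose by 2.84 and 1.59, *Tex19.1*, a regulator of retrotransposons, by 2.02 and 1.54, and the meiotic recombinase gene *Dmc1* by 0.66 and 0.82. *Sycp3*, a component of the synaptonemal complex, fell in both sexes, with log2 differences of -0.69 and -2.18. *Mael*, another piRNA pathway gene, rose in females by 1.05 (adjusted p = 4.90e-08) and fell by 1.65 in males (adjusted p = 0.00416). *Ddx4*, the RNA helicase that defines germ cells, rose in females by 1.19 (adjusted p = 1.34e-10), and its male log2 difference of 0.51 did not pass (adjusted p = 0.0779). The other female calls were *Hormad1* and *Tuba3a* higher and *Tdrd1* and *Tex101* lower.

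**Figure D4:**
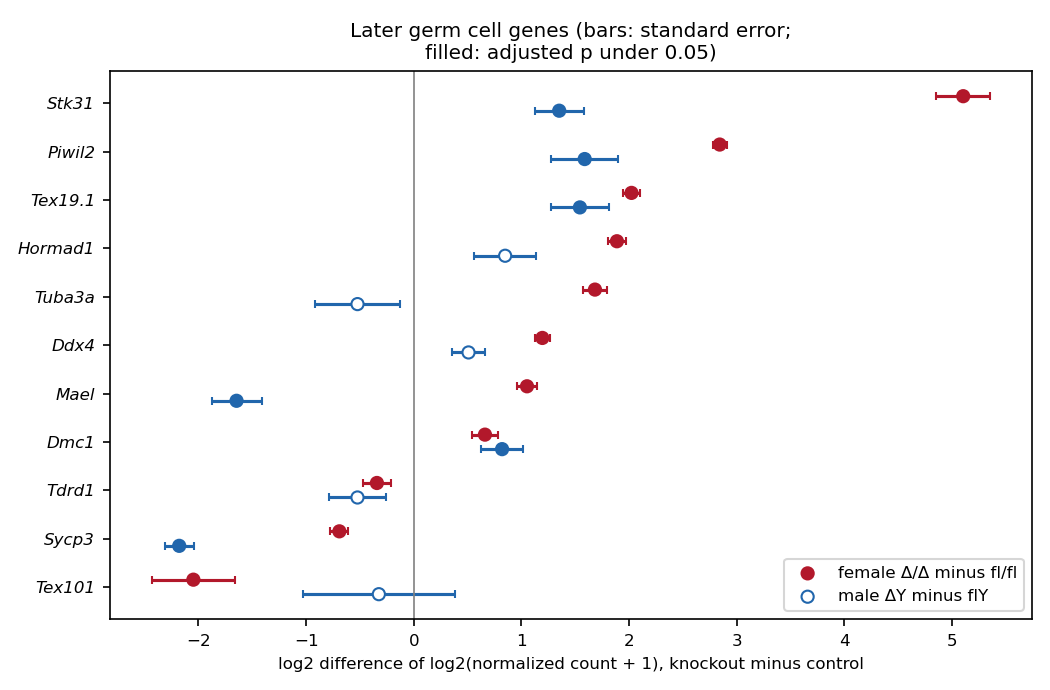
Difference in log2(normalized count + 1), knockout minus control (x axis), for 11 later germ cell genes (y axis) in females and males. Points are limma estimates, bars their standard errors, and filled points passed the test. *Stk31* lies at 5.10 in females and 1.35 in males, and *Mael* lies on opposite sides of 0 in the sexes.

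The nearest expressed genes on the chromosome moved with the 10 in some cases and against them in others. On each side, the nearest gene whose mean was 10 or more was examined. The distance ran from 0.316 kb (*Hars* to *Dnd1*) to 1785 kb (*Pvrl3* to *Dppa4*). *Pdgfra* and *Kdr* lay 377 and 276 kb from *Kit*, and *Plcl2* lay 216 kb from *Dazl*. Over all genes, 50.0% passed in females and 7.78% in males. Beside *Dazl*, *Rftn1* fell by 1.39 in females (adjusted p = 3.30e-06) and *Plcl2* fell by 0.38 (adjusted p = 0.0228). Beside *Dppa2*, *Morc1*, a germ cell gene that represses transposons, rose in females by 2.40 (adjusted p = 1.66e-12) and by 0.40 in males without passing (adjusted p = 0.381). Beside *Dppa3*, *Gdf3* rose in females by 0.84 and *Nanog* fell by 0.90. Beside *Kit*, *Pdgfra*, a receptor gene of primitive endoderm, moved in opposite directions, with a log2 difference of 4.10 in females (adjusted p = 9.88e-15) and -1.81 in males (adjusted p = 0.0161). *Kdr*, on the other side of *Kit*, rose in females by 1.73 (adjusted p = 0.00136). Next to *Nanos3*, 4930432K21Rik rose in females by 2.48 (adjusted p = 3.58e-07) at a distance of 1.14 kb. *Ifitm1* and *B4galnt4*, beside *Ifitm3*, and *Ik*, beside *Dnd1*, passed in neither sex. Of the remaining neighbours *Hars*, *Zswim4*, *Atg5*, *Gsta4* and *Prep* rose in females by 0.26 to 0.76 and *Pvrl3* fell by 0.28, and in males *Ooep* and *Pdgfra* were the neighbours outside the 10 genes that passed.

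By Pearson correlation of log2(normalized count + 1) over the 12 libraries, among 14132 genes whose mean was 10 or more, the gene most like *Dazl* was BC052688 (r = 0.993), followed by *Sohlh2*, a germ cell transcription factor gene (r = 0.992), and *Nptn* (r = 0.989). Those most like *Kit* were 4930500J02Rik, *Kalrn* and *Tet1* (r = 0.990, 0.988 and 0.986), and those most like *Dppa3* were *Klhl9*, *Cttnbp2nl* and *Dse* (r = 0.992, 0.990 and 0.975). *Dppa2* was most like *Kirrel2*, *Lrp2* and *Rfx7* (0.984 to 0.988), *Dppa4* most like *Tmem209*, *Zyg11b* and *Gm13242* (0.961 to 0.978), and *Dppa5a* most like *Wdfy3*, *Fam120b* and *Rab1* (0.959 to 0.969). *Dnd1* was most like *Eif2b5*, *Nudt21* and *Dlst* (0.955 to 0.981), *Ifitm3* most like *Snhg9*, *Sept7* and *Ywhab* (0.963 to 0.979), and *Prdm1* most like *Ccdc90b*, *Ifitm1* and *Epb4.1l4a* (0.892 to 0.901). The libraries fall into 4 genotypes, so these values mostly describe likeness across 4 group means. *Nanos3* was too low to be included.

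Some markers of other cell states moved with the same contrasts. Over all genes, 25.4% passed higher and 24.6% lower in females, and 4.19% higher and 3.58% lower in males. Of 8 naive pluripotency genes 7 rose in females and 5 in males, and their summed normalized count ran from 967 to 1018 in female controls, 3042 to 3211 in female mutants, 1454 to 2623 in male controls and 4139.8 to 7424 in male mutants. All 8 markers of visceral and primitive endoderm rose in females, from a sum of 286 to 344 in controls to 5458 to 5666 in mutants. The most abundant of the 8 was *Cubn*, at a mean of 84.0 in female controls and 3000 in female mutants. In males 0 of these 8 rose and 1, *Sox17*, fell, with sums of 2361 to 4274 in controls and of 607, 4679 and 4887 in mutants. The male mutant library at 607 was library A, in which *Dazl*, *Kit* and *Nanos3*, the last at a few reads, were also lower than in libraries B and C. *Dppa2*, *Dppa3*, *Dppa4*, *Dnd1*, *Prdm1* and *Ifitm3* were higher in library A than in B and C, and *Dppa5a* lay between them. Of 5 trophoblast markers 4 rose in males, and in females 2, *Tfap2c* and *Hand1*, rose and 1, *Krt8*, fell. *Tfap2c* was also counted among the germ cell regulators. *Hand1* averaged 22.3 in male controls and 640 in male mutants. In male mutants *Cdx2* was at a mean of 13.5 and *Elf5* at 2.71. The sum of the 5 ran from 1225 to 2055 in male controls and from 3924 to 7143 in male mutants. *Krt8* made up most of that sum, at a mean of 1586 in male controls and 4696 in male mutants. Of 6 fibroblast markers 3 rose in males and 2 fell in females, with sums of 2198 to 2260 and 744 to 809.5 in female controls and mutants and of 542 to 819.8 and 4085 to 4546 in male controls and mutants, while *Dcn* and *Lum* stayed at a mean of at most 6.79 and 2.39. Formative epiblast genes summed to 8451 to 8679 and 15534 to 16042 in female controls and mutants, and to 8929 to 16175 and 6951 to 9803 in male controls and mutants, with 4 of 6 higher and 1 lower in females and 3 of 6 lower in males. The female rise of that sum lay mostly in *Dnmt3a* (means of 2130 and 6446) and *Dnmt3b* (3392 and 6050). *Fgf5* averaged 217 and 206 in female controls and mutants, and *Pou3f1* 1311 and 1163. Of 3 core pluripotency genes *Sox2* rose and *Pou5f1* and *Nanog* fell in females, and 0 passed in males. Of 6 streak and mesoderm markers 2 rose and 1 fell in females, with *Mesp1* at a mean of at most 0.879, and of 4 neural markers 1 rose and 1 fell, with *Neurog2* at a mean of at most 2.09. The counts for these streak, mesoderm and neural lists were near the female shares over all genes. The part of any of these in the results for the 10 genes was not tested.

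**Figure D5:**
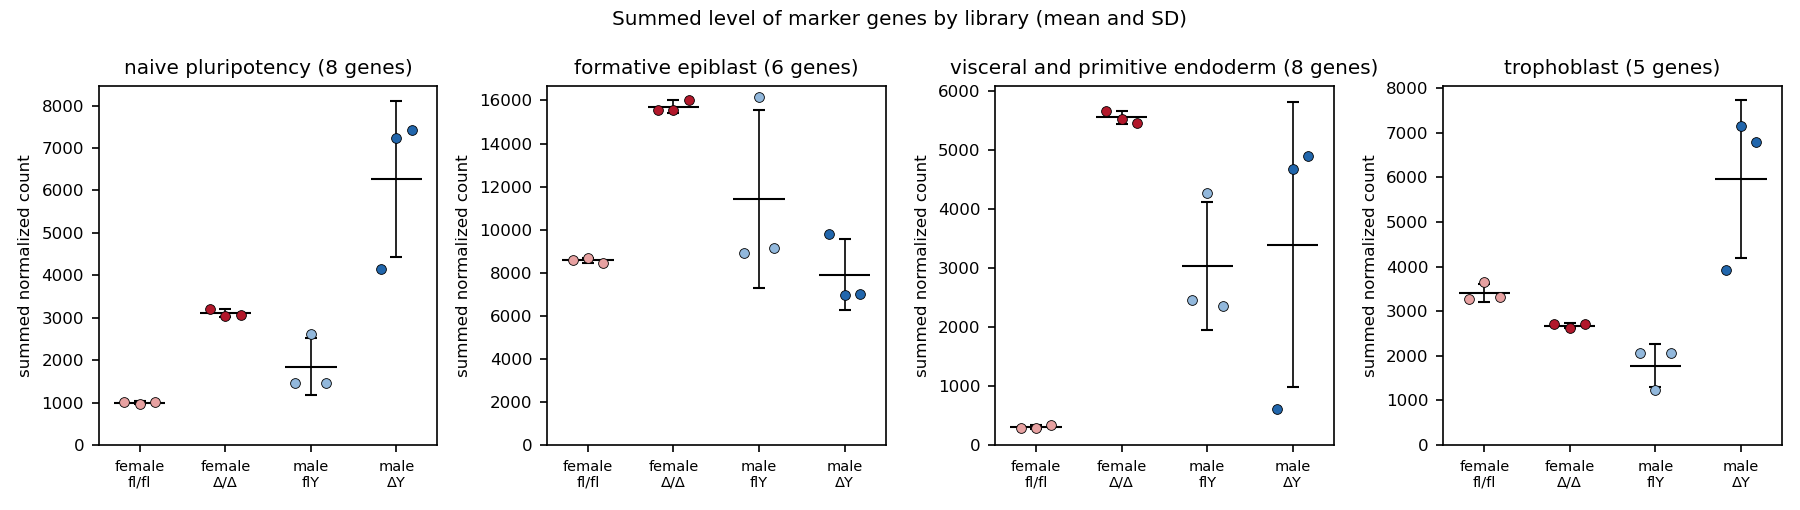
Summed normalized count (y axes) of the naive pluripotency, formative epiblast, visceral and primitive endoderm and trophoblast marker lists in the 4 genotypes (x axes). Points are libraries A, B and C from left to right, and the line and bar are the mean and SD. The endoderm sum is 286 to 344 in female *Kdm5c* fl/fl and 5458 to 5666 in female *Kdm5c* Δ/Δ libraries, and male *Kdm5c* ΔY library A, at 607, lies below B and C. Each sum is weighted toward its most abundant genes, such as *Krt8* in the trophoblast list.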

How the data were processed

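RNA was depleted of ribosomal RNA and sequenced as strand-specific single-end reads of 50 bp in 12 samples, 3 per genotype. The authors mapped reads to mm9 (TopHat2 2.1.0 and Bowtie2 2.2.6.0 in the submitters' processing notes), allowed 1 mismatch and kept unique alignments. The gene annotation and the strand setting of counting are not given in the sources used here. The signal columns the authors deposited are mean normalized counts per genotype, 1 table per sex. The tables also hold the authors' fold changes and p-values, which were not used.

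Each genotype mean is a sum of 3 whole read numbers, each divided by a size factor. These numbers were solved up to a mean of 10000, with 1 solution for every gene searched, which gave 22808 genes in all 12 libraries, and the solver and the fits were tested on simulated data. The libraries carry no sample names and were named A, B and C by falling size factor. Counts of pairs of libraries of a genotype differed by more than sampling noise (chi-square per gene of 1.98 or more). Female pairs were at 1.98 to 4.48. Male *Kdm5c* flY libraries A and C were at 2.35, and male *Kdm5c* ΔY libraries B and C at 2.64. Pairs with male *Kdm5c* flY library B or male *Kdm5c* ΔY library A were at 16.9 to 30.1. Fits without those libraries thus rest on the closest pair of each male genotype, with a small spread within it. Limma 3.58.1 (R 4.3.3) was fitted with an intensity trend to log2(normalized count + 1), within each sex for knockout against control and over all 12 libraries for the interaction and the sexes, with Benjamini-Hochberg adjustment over all genes with a read. Models of raw counts were not run on recovered reads, other than limma voom as an alternative. P-values measure the spread between libraries only. Alternatives were a minimum mean of 10, limma voom, 0.1 as the pseudocount, recomputed size factors, 1 fit over all libraries, and fits without single or paired libraries. The size factors of both tables were 0.988 to 0.999 times median-of-ratios factors over all 12 libraries, so the sexes share a scale. Genes were placed with GENCODE vM1 on mm9, and promoters came from RefSeq, which matched 5 of the 10 genes. Named genes were the 10, list genes that passed the test or whose values were needed, nearest neighbours and the 3 most alike genes. The 10 genes and all lists were chosen with earlier results of these data known. 1 listed gene is not reported here. The later germ cell gene *Gcna* and the relatives *Dppa5b* and *Dppa5c* did not match a row by symbol. Other tools were matplotlib 3.10.9, numba 0.67.0, numpy 2.4.6, pandas 2.3.3, Python 3.11.15 and scipy 1.17.1.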

Additional observations from a re-analysis of the deposited data

Results flagged for a closer look

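The change with loss of *Kdm5c* differed between the sexes for 7 of the 10 genes in limma's interaction of sex and genotype (21.2% of 22014 genes). Male change minus female change on the log2 scale was -2.16 for *Dazl*, -1.87 for *Kit*, -1.69 for *Dppa4*, -1.58 for *Dppa2* and -0.996 for *Dppa5a*, and it was 1.27 for *Dppa3* and 0.74 for *Ifitm3*. For *Dppa2*, *Dppa3*, *Dppa4*, *Dppa5a* and *Kit* the difference passed under every alternative tried. For *Dazl* it was lost with limma voom (-2.19, adjusted p = 0.105) and with male *Kdm5c* flY library B as the lone male control (-2.49, adjusted p = 0.0708). For *Ifitm3* it was lost under 9 of 18 alternatives. For *Nanos3*, *Dnd1* and *Prdm1* the interaction did not pass (adjusted p = 0.980, 0.124 and 0.935).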

How the results depend on the processing

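In females 7 or 8 of the 10 genes passed under every alternative. In males the count was 4, and it was 1 to 5 when 1 library was left out. It fell to 0 without male *Kdm5c* flY libraries A and C, an alternative chosen after seeing the data, in which the lone control is assumed to vary like the other libraries. In that limma fit 2 of the 10 genes (*Dppa3* and *Dppa4*) had an unadjusted p under 0.05, as had 2799 of 19066 genes, and 0 genes in all passed. The count for the sexes among mutants rose from 3 to 5 without male *Kdm5c* flY library B and male *Kdm5c* ΔY library A. Of the results for single genes under alternatives, 707 kept direction and call, 34 lost the call, 15 gained it and 19 changed sign.

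The values that changed sign belonged to results that had not passed, with a log2 difference of up to 0.63. They were, for *Ifitm3* in females, -0.031 without female *Kdm5c* Δ/Δ library C; for *Dnd1* in males, -0.014, -0.080 and -0.39 without male *Kdm5c* flY libraries A, C and both; and for *Prdm1* in males, -0.048 without both. For the difference between the sexes' changes, *Nanos3* gave -0.46, -0.10, -0.0051, -0.47, -0.23 and -0.70, without female *Kdm5c* fl/fl library A, female *Kdm5c* Δ/Δ library A or B, male *Kdm5c* flY library C, male *Kdm5c* ΔY library B, and male *Kdm5c* flY libraries A and C. *Prdm1* gave 0.11, 0.16, 0.13 and 0.13 without female *Kdm5c* fl/fl library A, male *Kdm5c* flY library B and male *Kdm5c* ΔY libraries B and C. Among controls *Nanos3* gave -0.11 without male *Kdm5c* flY libraries A and C. Among mutants *Kit* gave -0.20 without male *Kdm5c* ΔY library A, with or without male *Kdm5c* flY library B, and *Dppa3* gave -0.037 without male *Kdm5c* ΔY library B. The cause was not tested.

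Over all genes, the female fit called 9799 genes and 6493 in 1 fit over all 12 libraries. The male fit called 1703 (53.9% of them higher), 4766 in that fit, 331 to 4684 when 1 library was left out (64.4% and 30.5% higher), and 9377 without male *Kdm5c* flY library B and male *Kdm5c* ΔY library A (41.1% higher). The interaction called 4675, and 3554 to 7334 and 10014 likewise. For the sexes among controls the counts were 4741, 2894 to 8318 and 10724, and 2040 without male *Kdm5c* flY libraries A and C, and among mutants 5543, 3975 to 7327 and 8790. With a minimum mean of 10, *Nanos3* could not be tested. No paired analysis was possible because the recovered libraries carry no replicate numbers. With a few reads per library, *Nanos3* was limited by depth, and intervals from recovered reads cannot separate copies made by PCR.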
